A study of Sus scrofa with 24 samples.

Results

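The venous anastomosis, where a haemodialysis graft is sewn into a vein, was compared with the stretch of the same vein that lies downstream of it, 5 days after the graft was placed in pigs. The comparison holds 8 of the 24 samples of the series, chosen by their labels: 4 of the anastomosis and 4 of the downstream segment, numbered 1 to 4 at each site. Both groups came from grafted animals and differed, per the labels, in the place of sampling, and the replicates were different biological samples per the labels. The same sites at day 14 (4 and 4 samples) and the external jugular vein, the series' control, are described for context. Their samples also entered the fit, and with it the spread, the SE and the p-values at day 5. The jugular samples were the other channel of the anastomosis arrays. No strain, age or sex of the animals, and no statement that the sites of a number came from 1 animal, is in the labels. All samples compared were total RNA of whole vein tissue read in the Cy5 channel of Agilent pig arrays of 2 colours, so that dye did not differ between them. In such samples, fewer cells of a type and less RNA per cell cannot be told apart.

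Grafts for haemodialysis fail most often because the vein narrows at the anastomosis. In neointimal hyperplasia, smooth muscle cells and myofibroblasts, some of them from the adventitia (the outer coat of the vessel), divide, migrate towards the lumen and lay down matrix, while inflammatory cells enter the wall. The anastomosis is exposed to surgical injury, graft material and disturbed flow, and the series' title sets regions susceptible to this process against resistant ones. The comparison at day 5 addressed how the susceptible site differed from its neighbour early in the process.

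The arrays carry probes of 60 bases, and 21.1% of the 43603 probes could be paired with a gene symbol. The first 30 bases of probes on which the results below turn are given here so that the measured transcripts can be traced, since most other probes have no name. Those with a symbol are 4 probes of genes higher or lower in every pair of samples and the 3 probes of NTRK2, which disagreed with each other. The 4 probes without a symbol had the largest differences in each direction among unnamed features with 1 direction in 4 of 4 pairs; wider unnamed differences without that are given with their values further on.
CHSY3: agaagtcaagaagtaggagtggtgcatatt
MCM3: gtcaccatacgtacaaaagactcatacgaa
SCARA5: ccaggcctaaaatgcagcagaccttttgta
PROX1: tataaccagagactgtgagctgtacagggc
NTRK2, used: ccatcctggaaatatgttgcttttcattgt
NTRK2, other 1: ggcaatgaactgtttcaggactattttata
NTRK2, other 2: attttctggagtttctgcccctgctctgcg
A_72_P186971, higher: ggaggtcagcatctgaagctcaggactaca
A_72_P314703, higher: cagaggccatcggctctgatttggaaaatc
A_72_P415788, lower: gttgcactccagggtgaaccaagctaaaag
A_72_P189346, lower: gatttgttacaacattgtttcagaaaccac

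No feature differed between anastomosis and downstream vein at day 5 once p-values were adjusted. Of 33359 features tested with limma, 0 had an adjusted p under 0.05 (0.0%), and the lowest adjusted p was 0.424. At an unadjusted p under 0.05 there were 3331 features (9.99%), of which 1921 were higher at the anastomosis and 1410 lower. With replicate 1 left out of the fit there were 1253 (3.76%). Fitted differences past 2-fold numbered 72 higher (0.216%) and 157 lower (0.471%). The genes and groups below are therefore described by their values in each pair, and none of them passed the test. Values are log2 normalised intensities, differences are anastomosis minus downstream on the log2 scale with the SE of the fit, and a pair is the anastomosis and the downstream sample of 1 number.

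Each pair was hybridised on 1 slide, with the anastomosis sample always at an odd position and the downstream sample at the next one, so slide position and site cannot be told apart. Between 62.9% and 79.0% of probes were well above background in the anastomosis samples, against 65.3% to 80.0% in the downstream samples. The number of arrays limits the precision: the SE of a difference had a median of 0.14 over features. The pairs were unequal in size. Pair 1 had 10.6% of features past 2-fold in either direction, against 1.81%, 0.48% and 1.21% in pairs 2, 3 and 4. Over features, the differences correlated between pairs at -0.039 (pairs 3 and 4) to 0.43 (pairs 1 and 4). Pairs 1 and 2 were quantified with an earlier version of the extraction protocol than pairs 3 and 4, per the file headers. Every gene described as higher or lower in 4 of 4 pairs therefore had that direction within each slide and each protocol version, while the size of a fitted difference often came mostly from pair 1.

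The genes that differed most steadily included several lower at the anastomosis by a wide margin. SCARA5, a ferritin-binding scavenger receptor of fibroblasts, was at 9.10, 8.71, 9.76 and 9.98 in the anastomosis samples, against 13.56, 12.48, 11.42 and 10.94 in the downstream samples. The groups did not overlap, with means of 9.39 ± 0.59 at the anastomosis and 12.10 ± 1.17 downstream (SD, n = 4 each), a 6.56-fold lower level. The difference was -2.71 ± 0.50 with an adjusted p of 0.424, and it was widest in pair 1 and narrowest in pair 4. TNXB, which encodes the matrix glycoprotein tenascin-X, was at 9.69, 10.63, 11.02 and 10.98 at the anastomosis, against 12.96, 12.08, 12.05 and 12.54 downstream. Its highest anastomosis sample lay below its lowest downstream sample, and its difference was -1.83 ± 0.35. ANGPTL1, a secreted angiopoietin-like protein, was at 8.62, 9.07, 10.51 and 9.66 at the anastomosis, against 11.69, 11.08, 11.41 and 10.53 downstream, again without overlap though by a margin of only hundredths between the closest samples.

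**Figure D1:**
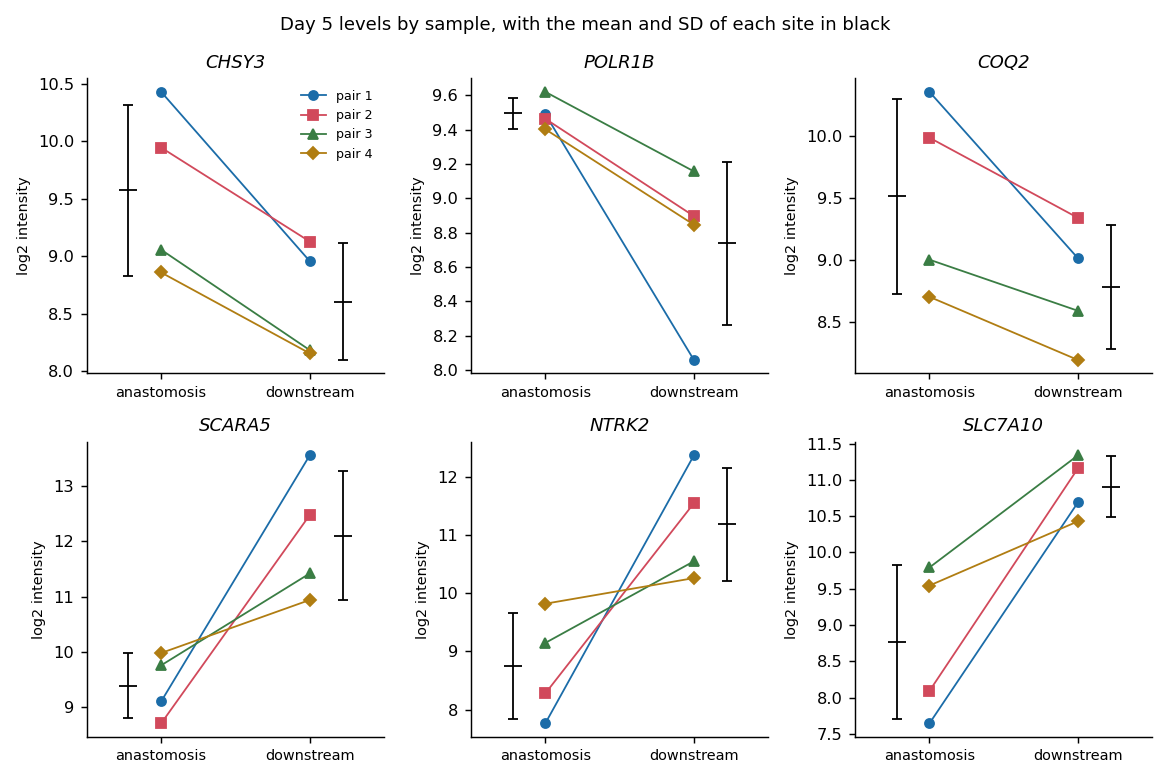
Day 5 levels (log2 intensity, vertical axis) of the 3 genes with the widest difference among the 15 leading higher genes (top row) and among the 15 leading lower genes (bottom row), with the anastomosis left and the downstream vein right. Each line joins the samples of a pair and the black bars are mean and SD of 4 samples; all lines of a gene slope the same way, and SCARA5 differs by -2.71 in the fit.

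NTRK2, the receptor of brain-derived neurotrophic factor, was at 7.76, 8.28, 9.14 and 9.82 at the anastomosis, against 12.37, 11.54, 10.55 and 10.26 downstream. The groups did not overlap, and the pair differences ran from -4.60 in pair 1 to -0.44 in pair 4. Of its other probes, 1 gave a mean difference of -2.04 and the dimmer one gave -0.06, so the 3 probes did not give 1 answer for this gene. SLC7A10, a transporter of small neutral amino acids that is abundant in white fat, was at 7.64, 8.09, 9.79 and 9.54 at the anastomosis, against 10.69, 11.16, 11.34 and 10.43 downstream. Its groups did not overlap, and its difference of -2.14 ± 0.51 was smallest in pair 4. PROX1, the transcription factor that sets lymphatic endothelial identity, was at 6.58, 6.82, 6.79 and 6.34 at the anastomosis, against 8.52, 7.90, 7.65 and 7.65 downstream. All 4 pair differences of PROX1 lay between -1.94 and -0.85, the most even among the wide ones.

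DAPK1, a kinase that promotes cell death, was at 9.67, 9.96, 9.95 and 9.07 at the anastomosis, against 11.74, 10.90, 10.36 and 9.85 downstream. It had the lowest unadjusted p of the lower genes (8.4e-05), and its groups overlapped, since the downstream sample of pair 4 lay below 2 of the anastomosis samples. A second, dimmer DAPK1 probe gave a mean difference of -0.28. The remaining leading lower genes were smaller in effect: MLLT3, a chromatin reader (-0.86), PPEF1, a calcium-binding phosphatase (-0.81), ADD3, a subunit of the membrane skeleton protein adducin (-0.60), SLC5A5, the sodium-iodide symporter (-0.48), STPG4 (-0.41), IL17RB, a receptor of interleukin 17 family cytokines (-0.35), KATNAL1, a microtubule-severing subunit (-0.34), and UGT1A3, a glucuronosyltransferase (-0.30). In all, 7 of the 15 leading lower genes were past 2-fold, where 1.09% of features with a symbol were, and 7 had groups that did not overlap, where 0.834% did. The genes were picked by the same values, so nothing is read from these counts.

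The leading higher genes differed by less, and 0 of the 15 were past 2-fold. CHSY3, an enzyme that elongates chondroitin sulfate chains, was at 10.43, 9.95, 9.06 and 8.86 at the anastomosis, against 8.96, 9.13, 8.18 and 8.15 downstream. The difference of 0.97 ± 0.19 was positive in every pair, between 0.70 and 1.47, although the groups overlapped because pairs 1 and 2 were brighter at both sites. POLR1B, a large subunit of the polymerase that makes ribosomal RNA, was at 9.49, 9.46, 9.62 and 9.40 at the anastomosis, against 8.06, 8.90, 9.16 and 8.85 downstream, without overlap. Groups also did not overlap for PTGER2, a receptor of prostaglandin E2, at 7.24, 6.99, 6.95 and 6.89 at the anastomosis against 6.55, 6.87, 6.68 and 6.45 downstream.

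Among the other leading higher genes were several that serve mitochondria, RNA handling and protein synthesis. COQ2, an enzyme of ubiquinone synthesis, differed by 0.73, NDUFAF5, an assembly factor of respiratory complex I, by 0.45, and GFM2, a factor of mitochondrial ribosome recycling, by 0.50. ABCE1, which recycles ribosomes in the cytoplasm, differed by 0.60, DUS4L, a transfer RNA modifying enzyme, by 0.58, and CWF19L1 by 0.51. B4GALT4 and ALG9, which build sugar chains of glycoproteins, differed by 0.60 and 0.40. C3H16orf59 (0.60), BRAP (0.34) and ZFP64 (0.32) were further ones. No theme was fixed for these genes, and all 15 had their largest pair difference in pair 1. Groups of 6 of the 15 did not overlap, beside 2.06% of features with a symbol that were higher without overlap, a count that the choice by these values fixes in part.

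The gene lists, 34 in number with 585 different symbols tested, gave 4 lists with a positive median in all 4 pairs, 2 with a negative median in all 4 pairs and 28 with medians of both signs. The positive ones were cell cycle, collagen processing, endoplasmic reticulum folding and mitochondrial energy, and the negative ones were adventitial fibroblast and complement and coagulation. Features with a symbol as a whole also had a positive median in each pair (0.135, 0.019, 0.04 and 0.038), and in pair 3 the medians of collagen processing (0.02) and mitochondrial energy (0.036) lay below theirs. In 21 of the 34 lists the median farthest from 0 was that of pair 1. Members of a list can vary together, so a count of members is not a count of replicates, of which there were 4 pairs. The smallest two-sided p that an exact sign test on 4 pairs can give is 0.125.

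**Figure D2:**
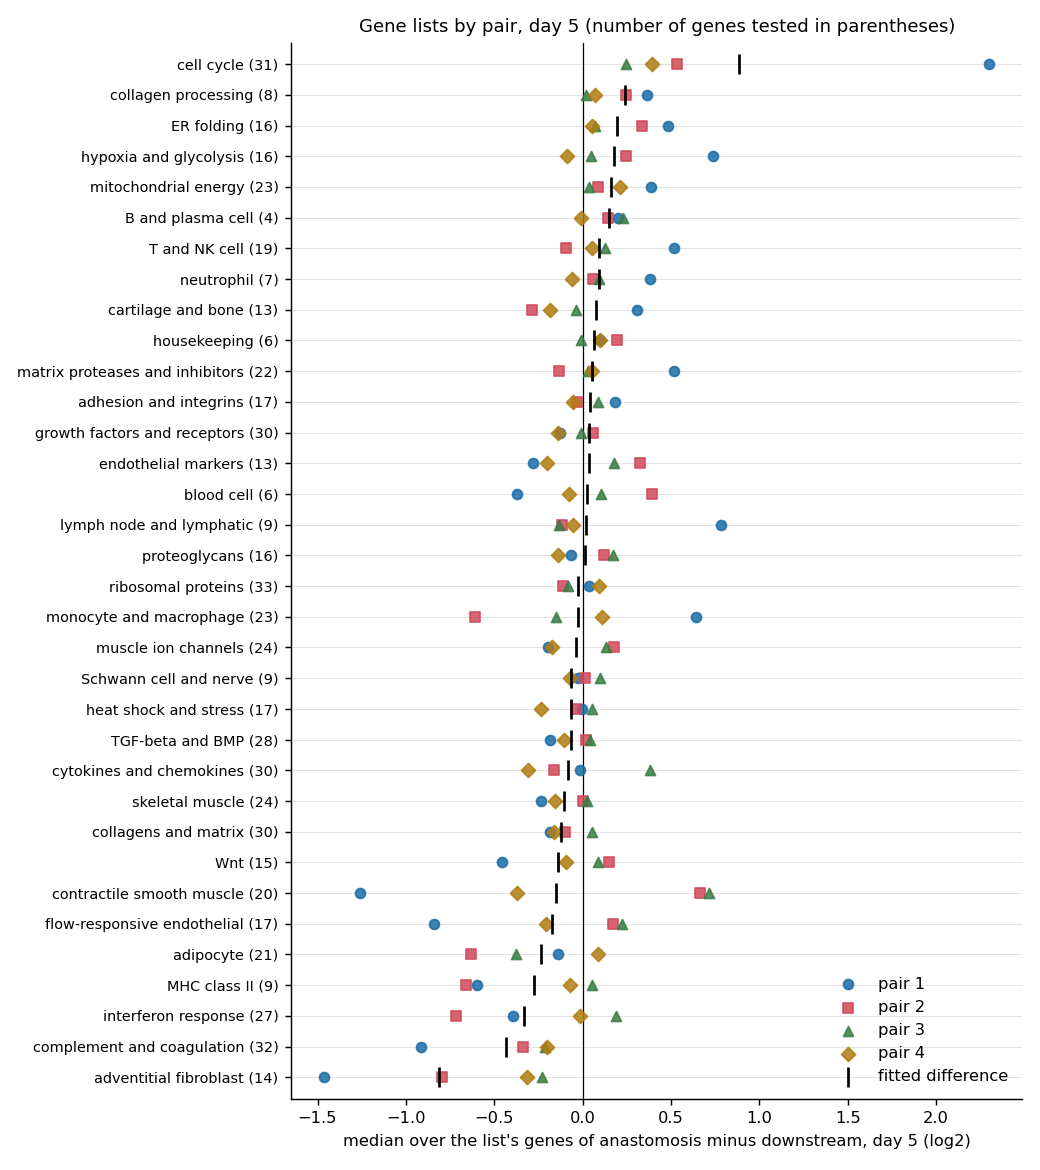
Median difference between anastomosis and downstream vein at day 5 (log2, horizontal axis) over the genes of each list, for each pair (coloured symbols) and for the fit (black bar). The cell cycle list, at 0.88 in the fit, has all 4 symbols on the right and the adventitial fibroblast list, at -0.81, has all 4 on the left, whereas the contractile smooth muscle list has pairs on both sides.

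Genes of cell division were higher at the anastomosis in nearly every pair. Of 31 cell cycle genes tested, 30 were higher in 4 of 4 pairs and 0 lower, where 12.9% of all features and 20.6% of features with a symbol were higher in 4 of 4 pairs. The median difference was 0.88, beside -0.01 over all features and 0.05 over features with a symbol, and 13 of the 31 had an unadjusted p under 0.05 (5.76% of all features were higher at that p). The pair medians were 2.30, 0.53, 0.25 and 0.39, so the size came mainly from pair 1 while the direction was shared. Without pair 1, the same number of genes, 30, were higher in the 3 other pairs, where 18.2% of all features were. Groups did not overlap for 9 of the 31, where 1.24% of all features and 2.06% of those with a symbol were higher without overlap.

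The members covered the phases of the cycle. MCM3, a part of the helicase that opens DNA for replication, was at 10.31, 9.44, 8.72 and 8.36 at the anastomosis, against 8.003, 8.81, 8.47 and 7.93 downstream, a difference of 0.90 ± 0.31. The anastomosis sample was the brighter one of each pair, although the groups overlapped. MELK, a kinase of dividing cells, was at 10.59, 10.11, 9.20 and 9.13 at the anastomosis, against 8.23, 9.42, 8.98 and 8.65 downstream. PBK, a mitotic kinase, was the most even of the 3, with pair differences of 1.18, 0.84, 0.53 and 0.25. Their adjusted p-values were 0.426 to 0.432.

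Other members are named here after their values were seen, as textbook markers of division. RRM2, the ribonucleotide reductase subunit made in S phase, was at 12.54, 12.07, 11.99 and 11.65 at the anastomosis, against 9.49, 11.15, 11.49 and 11.19 downstream. TOP2A, the topoisomerase that untangles replicated DNA, differed by 2.26, 0.70, 0.24 and 0.39 in pairs 1 to 4, again without overlap of the groups. The mitotic genes CDK1, CCNB1, PLK1 and BUB1 had fitted differences of 0.99, 1.13, 0.90 and 0.89, and the replication clamp PCNA one of 0.35. E2F1, a transcription factor at the entry into S phase, was the exception, with 9.17, 10.20, 8.26 and 8.38 at the anastomosis against 9.47, 10.02, 8.21 and 8.41 downstream, and the 95% confidence interval of its difference was -0.25 to 0.19. The downstream sample of pair 1 stood out in this list, being the lowest of its group for RRM2 and TOP2A by over 1 log2 unit. Both sites had higher means than the jugular vein for 31 of 31 members, by a median of 2.37 at the anastomosis and 1.47 downstream, but the jugular samples were read in the other dye and were not tested here.

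**Figure D3:**
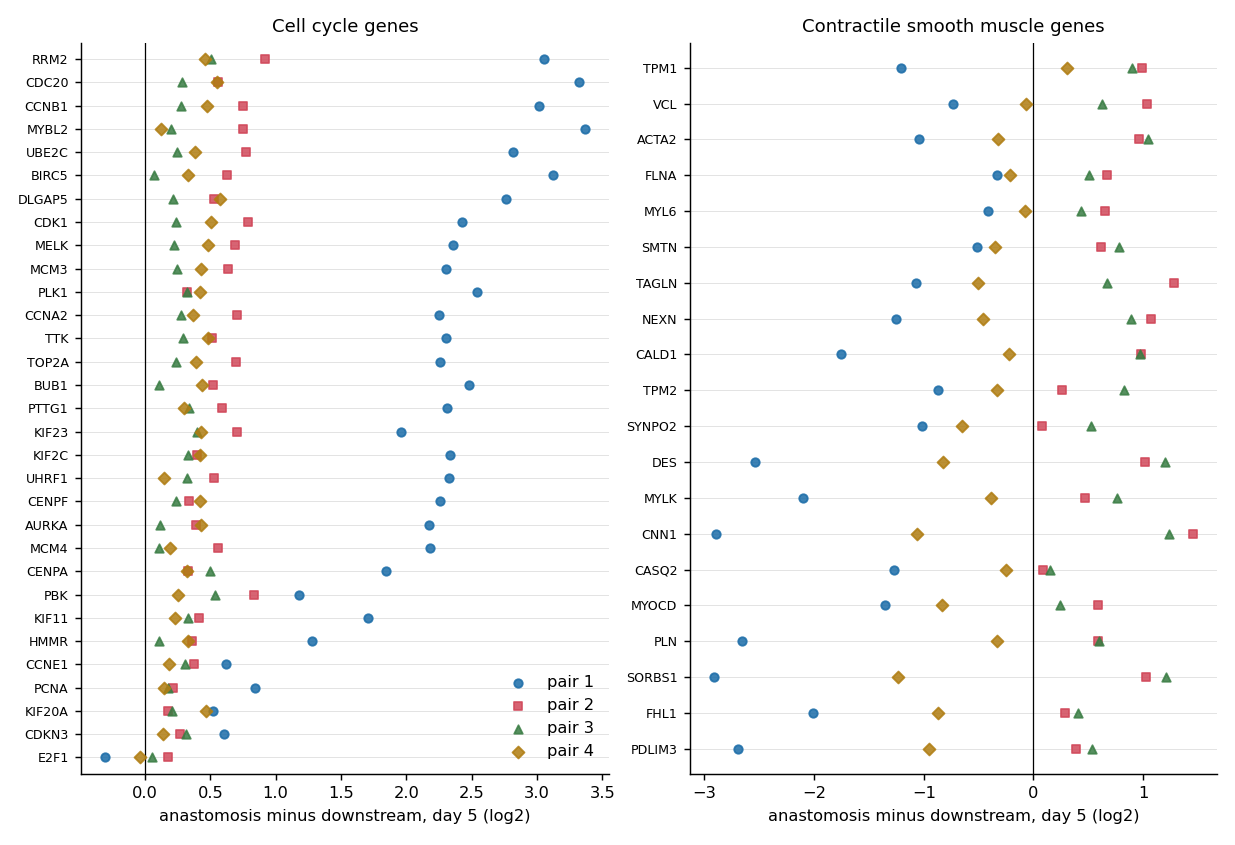
Difference between anastomosis and downstream vein at day 5 (log2, horizontal axis) in each pair for the 31 cell cycle genes (left panel) and the 20 contractile smooth muscle genes (right panel). Cell cycle genes other than E2F1 lie right of 0 in all 4 pairs, with pair 1 farthest out (median 2.30), while contractile genes lie left of 0 in pair 1 (median -1.26) and right of 0 in pairs 2 and 3.

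Genes of protein folding in the endoplasmic reticulum, which expands in cells that secrete matrix, were higher for 7 of 16 members in 4 of 4 pairs and lower for 3, with a median of 0.20. Beside them, 12.9% of all features and 20.6% of those with a symbol were higher in 4 of 4 pairs and 11.0% and 9.16% lower, and the authors' table gave 3 higher and 1 lower. CRELD2, a secreted chaperone-like protein, was at 14.12, 13.24, 13.27 and 13.43 at the anastomosis, against 11.88, 12.63, 13.04 and 12.90 downstream. SSR1, a subunit of the translocon-associated complex, was at 14.35, 13.73, 13.31 and 13.95 at the anastomosis, against 12.24, 13.17, 13.12 and 13.22 downstream. Neither gene's groups overlapped, although in pair 3 the samples lay within 0.23 of each other for both genes. HSP90B1 and CALR, which hold newly made proteins in the folding compartment, differed by 0.50 and 0.48, with HSP90B1 at 1.21, 0.44, 0.08 and 0.26 in pairs 1 to 4. DDIT3 and DNAJB9 were lower in 4 of 4 pairs, with -0.56 and -0.29. CALR, DDIT3 and DNAJB9 were named after their values were seen. Of 23 genes of mitochondrial energy metabolism, 9 were higher in 4 of 4 pairs and 2 lower, with a median of 0.16, beside the same shares of features (20.6% of those with a symbol higher). That count was 5 with processed signals, 6 with the red channel alone and 14 with median centring, which also put 27.5% of features with a symbol higher. NDUFS1, a complex I subunit, differed by 0.37 but was lower in pair 3. Of the 8 collagen processing genes tested, 2 were higher in 4 of 4 pairs, a share near that of features with a symbol (20.6%), with a median of 0.24, and 0 were with the red channel alone or in the authors' table.

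The adventitial fibroblast list was the counterpart on the lower side. Of its 14 genes tested, 10 were lower in 4 of 4 pairs and 0 higher, where 11.0% of all features and 9.16% of features with a symbol were lower in 4 of 4. The median difference was -0.81, and 6 of the 14 had an unadjusted p under 0.05 (4.23% of all features and 3.27% of those with a symbol were lower at that p). The pair medians were -1.46, -0.80, -0.23 and -0.31. Beside SCARA5 and TNXB, the list held C7, a late complement component made by stromal cells, at 6.47, 7.36, 8.11 and 7.86 at the anastomosis, against 8.03, 8.16, 8.36 and 8.78 downstream. CD34, a surface protein of stromal progenitors and endothelium, and ABCA8, a lipid transporter, named after their values were seen, differed by -0.56 and -1.52. The broad fibroblast genes DCN and DPT differed by less, -0.44 ± 0.44 and -0.31 ± 0.38. GSN, MFAP5, APOD and DPT were the members without a shared direction.

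Markers of other tissues followed this list only in part, lymphatic ones in every pair and adipocyte ones in pairs 1 to 3. The means of nerve and smooth muscle markers went both ways between pairs. The skeletal muscle mean was lower in pairs 1, 2 and 4 and higher in pair 3, where only ACTA1 was higher (1.45). Of these markers, CKM, MYH1 and TNNT3 were lower in 4 of 4 pairs by small amounts (-0.35, -0.15 and -0.16 in the fit). MYH1 was well above background in 0 samples of either site. The mean level of 5 adipocyte markers was 8.18, 7.79, 8.0 and 9.34 in the anastomosis samples, against 9.43, 10.66, 10.08 and 8.33 in the downstream samples, which is lower in pairs 1 to 3 and higher in pair 4. ADIPOQ (2.90) and FABP4 (2.28) carried the reversal in pair 4. There CIDEC was at 0.01, and PLIN1 and LEP, lower in every pair, were at -0.082 and -0.085. The 2 lymphatic markers averaged 6.41, 6.58, 7.16 and 6.37 at the anastomosis, against 7.96, 8.68, 8.80 and 7.13 downstream. SCARA5, TNXB and SLC7A10 differed by -0.96, -1.56 and -0.89 in pair 4. The part of fat and lymphatic tissue in these results was not tested in any pair. The fibroblast markers SCARA5, DCN and DPT together spanned 12.71 to 13.43 at the anastomosis, against 13.45 to 14.67 downstream, the only 1 of 11 marker sets whose ranges did not overlap. That rested on SCARA5, which was also among the genes picked by their day 5 values. The groups of DCN and those of DPT overlapped, and DPT was slightly higher in pair 3 (0.06).

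**Figure D4:**
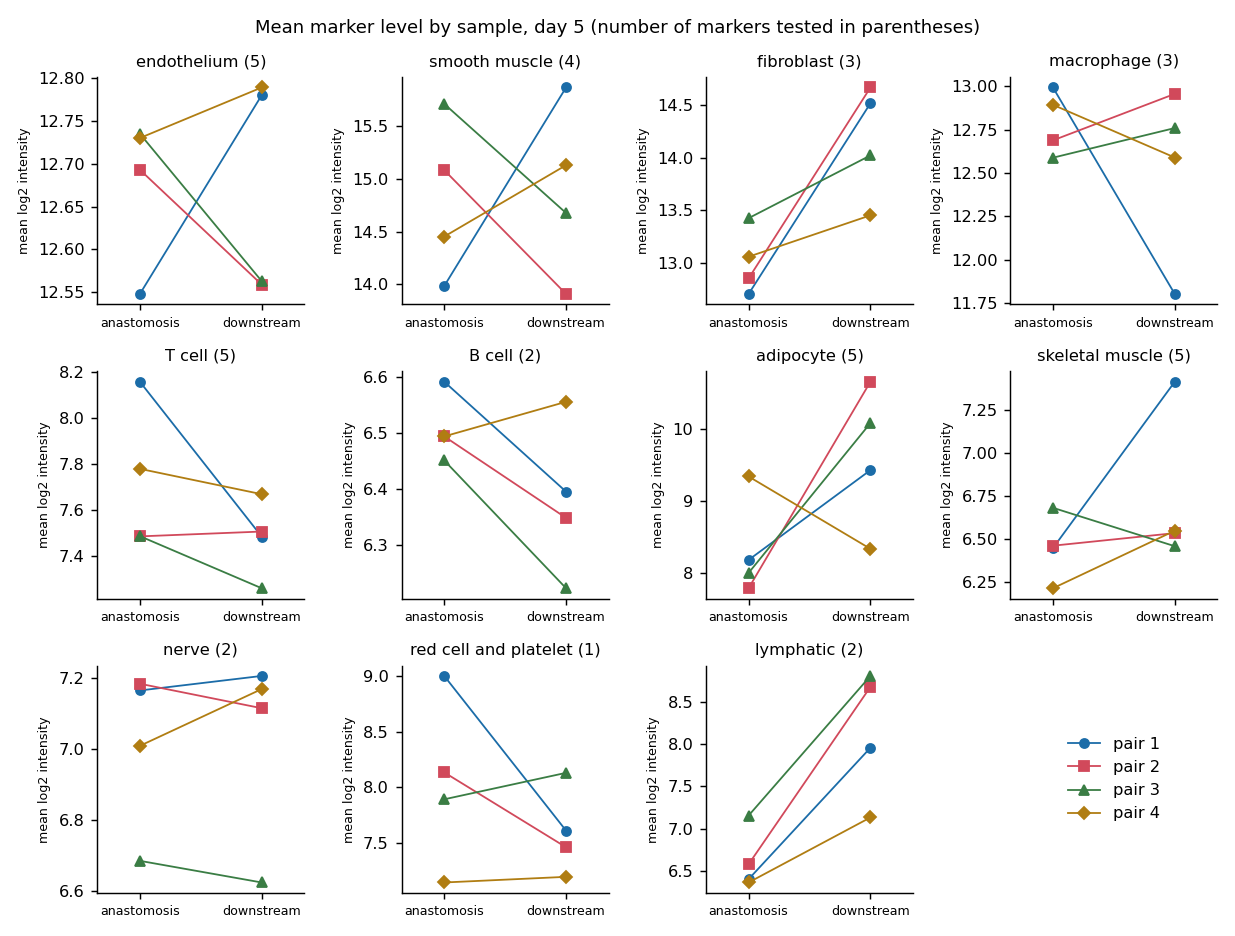
Mean level of cell type markers (log2 intensity, vertical axis) in each sample at day 5, with the anastomosis left, the downstream vein right and a line for each pair. Fibroblast and lymphatic means are lower at the anastomosis in all pairs, adipocyte means in pairs 1 to 3 (9.34 against 8.33 in pair 4), and smooth muscle means cross.

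The adipocyte genes themselves had a median difference of -0.24, with 4 of 21 lower and 2 of 21 higher in 4 of 4 pairs. Of all features 11.0% were lower and 12.9% higher, and of those with a symbol 9.16% and 20.6%. The authors' table gave 10 of 21 lower. ADIPOQ, the fat cell hormone adiponectin, was at 6.37, 6.38, 5.66 and 9.58 at the anastomosis, against 10.28, 12.84, 11.68 and 6.68 downstream. It was well above background in 2 of the 4 anastomosis samples and in all 4 downstream samples, and the reversal in pair 4 gave a wide 95% confidence interval of -7.97 to 1.23. CD36, a fatty acid receptor of fat and capillaries, followed the same order of pairs.

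Contractile smooth muscle genes lay on 1 side within nearly every pair, but on different sides in different pairs. In pair 1, 0 of 20 members were higher at the anastomosis, in pairs 2 and 3 all 20 were, and in pair 4 1 was. The pair medians were -1.26, 0.66, 0.71 and -0.37, and the fitted median was -0.15 with 0 members in 4 of 4 pairs in either direction. CNN1, the smooth muscle calponin, was at 14.10, 15.11, 15.45 and 13.64 at the anastomosis, against 16.99, 13.65, 14.21 and 14.70 downstream. ACTA2, smooth muscle actin, was at 15.95, 16.18, 16.92 and 16.20 at the anastomosis, against 16.99, 15.21, 15.87 and 16.52 downstream. The 95% confidence interval of its difference, -1.23 to 1.55, allows changes past 2-fold in either direction, so no likeness of the sites can be read from it. The cell type markers gave the same crossing, with smooth muscle at 13.98, 15.08, 15.71 and 14.45 at the anastomosis, against 15.87, 13.91, 14.68 and 15.13 downstream. Both sites had lower means than the jugular vein for 20 of 20 members, with the same limit from the dye.

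The mean of 5 endothelial markers was 12.55 to 12.74 at the anastomosis and 12.56 to 12.79 downstream. Single markers went opposite ways, with KDR at 1.415, VWF at -1.325 and TEK at -1.225 in pair 1. No likeness of the sites can therefore be read from the means. Of 13 endothelial genes, 1 was higher and 0 lower in 4 of 4 pairs, where 20.6% and 9.16% of features with a symbol were. It was SOX18, a transcription factor of endothelium, at 9.19, 9.37, 9.10 and 9.65 at the anastomosis, against 8.19, 8.94, 8.92 and 9.44 downstream. VWF, the clotting factor carrier made by endothelium, differed by -0.58 ± 0.29. Of 17 flow-responsive genes, 1 was higher and 1 lower in 4 of 4 pairs, where 12.9% and 11.0% of all features were, and 20.6% and 9.16% of those with a symbol. The lower one, KLF4, a transcription factor induced by laminar flow, was at 10.07, 11.19, 11.14 and 10.81 at the anastomosis, against 12.66, 12.10, 11.86 and 11.73 downstream. The KLF4 groups did not overlap, its second probe gave -1.23, and its adjusted p was 0.445.

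Complement and coagulation genes were mostly lower. Of 32 tested, 14 were lower in 4 of 4 pairs and 1, F13A1, was higher, where 11.0% of all features and 9.16% of those with a symbol were lower. The list had a median of -0.44 and pair medians of -0.91, -0.34, -0.21 and -0.20. At an unadjusted p under 0.05, 7 were lower (4.23% of all features and 3.27% of those with a symbol were) and 0 higher. CFI, the protease that inactivates C3b, was at 10.77, 10.70, 11.13 and 10.21 at the anastomosis, against 12.49, 11.42, 11.80 and 10.56 downstream, a difference of -0.87 ± 0.25. C1QC, a chain of C1q that macrophages make, was at 11.21, 11.06, 12.03 and 11.98 at the anastomosis, against 13.09, 11.75, 12.12 and 12.48 downstream. Both genes had overlapping groups with the anastomosis lower in each pair. C7 and CFD belong to this list and to the adventitial fibroblast list.

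Inflammatory cell genes did not share a direction at day 5. The 23 monocyte and macrophage genes had pair medians of 0.64, -0.61, -0.15 and 0.11, with 4 lower and 0 higher in 4 of 4 pairs. Of all features 11.0% were lower and 12.9% higher, and of those with a symbol 9.16% and 20.6%. The macrophage markers CD163, MSR1 and CD14 averaged 12.99, 12.69, 12.59 and 12.89 at the anastomosis, against 11.80, 12.96, 12.76 and 12.59 downstream, and the low value was again the downstream sample of pair 1. T and NK cell genes had a median of 0.10 over 19 members, neutrophil genes 0.09 over 7, and the defining neutrophil markers were not among the features tested. Interferon response genes had a median of -0.33 over 27 members, with 4 lower in 4 of 4 pairs (11.0% of all features and 9.16% of those with a symbol were). MHC class II genes had a median of -0.28 over 9 members, with 0 in 4 of 4 pairs in either direction. Among cytokines and chemokines, CCL20, which attracts CCR6-bearing lymphocytes, was at 11.28, 9.90, 12.31 and 8.73 at the anastomosis, against 7.74, 7.95, 10.41 and 9.999 downstream. It was far higher at the anastomosis in pairs 1 to 3 and lower in pair 4. CCL21, the chemokine of lymphatic endothelium, was at 6.23, 6.34, 7.52 and 6.39 at the anastomosis, against 7.39, 9.45, 9.96 and 6.62 downstream, lower in each pair. CCL21 was well above background in only 2 of the 4 anastomosis samples, so its low values there have no exact size.

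Matrix genes were mixed. Of 30 collagen and matrix genes, 2 were higher and 7 lower in 4 of 4 pairs, with a median of -0.12. Of all features 12.9% were higher and 11.0% lower, and of those with a symbol 20.6% and 9.16%. The authors' table gave 5 higher and 5 lower, and median centring 4 higher and 3 lower. COL3A1, a fibrillar collagen of the vessel wall, was at 9.97, 10.05, 9.32 and 9.43 at the anastomosis, against 9.08, 9.38, 9.02 and 9.11 downstream. COL14A1, a collagen that decorates fibrils, was at 11.68, 12.23, 13.35 and 12.47 at the anastomosis, against 13.17, 12.84, 13.62 and 13.27 downstream. The fibrillar collagen was thus higher and the fibril-associated one lower in every pair, both with overlapping groups. TIMP1, an inhibitor of matrix proteases, was at 15.81, 14.76, 14.51 and 14.88 at the anastomosis, against 13.09, 12.87, 13.96 and 14.94 downstream, and MMP1, an interstitial collagenase, was at 10.12, 8.02, 6.97 and 6.83 at the anastomosis, against 6.24, 6.83, 7.05 and 6.59 downstream. For both genes pairs 1 and 2 carried the difference. BGN, a proteoglycan, had a single high sample, 15.84 in the downstream vein of pair 2, beside 9.87 to 10.97 at the anastomosis and 10.24 to 11.13 in the other downstream samples; this gene was chosen after its values were seen.

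Among genes of glycosaminoglycan chains, CHST11 stood beside CHSY3. CHST11, which adds sulfate to chondroitin, was at 9.46, 8.98, 8.76 and 8.47 at the anastomosis, against 7.91, 8.04, 8.33 and 8.11 downstream, without overlap and with a difference of 0.82 ± 0.25. HMMR, a receptor of hyaluronan that is also a mitotic spindle protein, differed by 0.52, with 1.28 in pair 1 and 0.11 to 0.36 in the others. GPC3, a cell surface heparan sulfate proteoglycan, differed by -1.03 in the fit and by -2.74, -0.71, 0.02 and -0.70 in pairs 1 to 4, and its second probe gave -0.61. The list as a whole had 3 of 16 members higher and 3 lower in 4 of 4 pairs, where 20.6% and 9.16% of features with a symbol were, and a median of 0.01.

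Growth factors and receptors also split, with 3 of 30 higher and 8 lower in 4 of 4 pairs. Of all features 12.9% were higher and 11.0% lower, and of those with a symbol 20.6% and 9.16%. At an unadjusted p under 0.05, 5 were higher and 4 lower, where 5.76% and 4.23% of all features were. FGFR2 and FGFR1, receptors of fibroblast growth factors, went opposite ways. FGFR2 was at 8.43, 7.76, 7.66 and 7.60 at the anastomosis, against 7.41, 7.31, 7.33 and 7.04 downstream, a difference of 0.59 ± 0.16. FGFR1 was at 12.29, 12.53, 12.91 and 12.94 at the anastomosis, against 13.57, 13.56, 13.43 and 13.04 downstream, a difference of -0.73 ± 0.24. Neither gene's groups overlapped, and a dim second FGFR1 probe gave -0.21. In the TGF-beta and BMP list, FST, the activin antagonist follistatin, differed by 0.99 ± 0.41 with pair 4 reversed, and in the Wnt list SFRP4, a secreted Wnt antagonist, was lower in each pair with -0.89 ± 0.41.

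The other lists had small medians, each between -0.10 and 0.18. They were hypoxia and glycolysis, cartilage and bone, skeletal muscle, nerve, muscle ion channel, lymph node and lymphatic, heat shock and stress, B and plasma cell, blood cell, ribosomal protein, adhesion and housekeeping genes. Of 33 ribosomal protein genes, 2 were higher and 3 lower in 4 of 4 pairs, and of 6 housekeeping genes 0 and 0. Of all features 12.9% were higher and 11.0% lower, and of those with a symbol 20.6% and 9.16%. In the hypoxia and glycolysis list TPI1, a glycolytic enzyme, was at 12.65, 11.83, 12.23 and 12.90 at the anastomosis, against 10.15, 11.23, 12.20 and 12.98 downstream, a difference that pair 1 carried.

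Among features without a symbol, A_72_P415788, which was designed on a pig expressed sequence tag, was at 6.80, 7.11, 7.29 and 7.41 at the anastomosis, against 10.28, 10.73, 9.54 and 7.70 downstream. Its groups did not overlap and its difference was -2.41 ± 0.48. Without replicate 4 it was the sole feature past the threshold, with an adjusted p of 0.0155, while each other alternative gave 0. A_72_P189346, from a skeletal muscle library, was at 8.15, 9.35, 8.67 and 7.40 at the anastomosis, against 11.07, 10.63, 8.97 and 9.83 downstream. On the higher side, A_72_P314703 was at 11.53, 11.67, 11.04 and 13.03 at the anastomosis, against 10.55, 10.60, 10.32 and 10.11 downstream, without overlap. A_72_P186971 was at 14.08, 13.53, 12.08 and 12.59 at the anastomosis, against 10.40, 12.39, 11.90 and 11.81 downstream, with pair 3 close. Wider differences without 1 direction in all pairs were those of A_72_P064476 (1.88 ± 0.97) and A_72_P283139 (1.65 ± 0.94), whose downstream samples of pair 1 stood at 7.72 and 6.94, against 11.08 to 11.35 and 11.25 to 12.35 in the other downstream samples. A_72_P325978 differed by -1.90, with pair 4 reversed.

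The same sites at day 14 gave a second reading from other samples, although the spread and the filter behind the choice of these genes came from all 24 samples, day 14 included. At day 14, 0 of 33359 features passed the threshold (lowest adjusted p 0.108), and 4710 (14.1%) had an unadjusted p under 0.05. All 15 leading higher genes had a positive difference at day 14 and all 15 lower ones a negative one. Among the 511 features with a symbol that were higher in 4 of 4 pairs with an unadjusted p under 0.05 at day 5, 84.1% had a positive difference at day 14, and among the 156 such lower features 86.5% had a negative one, so a direction kept between the days was common among features with this profile. An unadjusted p under 0.05 in the same direction at day 14 was found for 6 of the 15 higher genes and 10 of the 15 lower ones, beside 26.6% and 38.5% of those features. Slide positions were laid out alike on both days, so a position effect, which was not tested, would repeat.

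By gene, SCARA5 differed by -2.23 at day 14 (unadjusted p 0.00055), NTRK2 by -1.63, ANGPTL1 by -1.30 and MLLT3 by -1.04. DAPK1 differed by -0.00075 at day 14 and SLC7A10 by -0.46. CHSY3 differed by 0.70 and ZFP64 by 0.28, while BRAP differed by 0.01. A_72_P314703 differed by 2.74 at day 14, more than at day 5. The change of the site difference between the days, tested directly, had 0 features past the threshold and 1385 (4.15%) at an unadjusted p under 0.05; for DAPK1 it was -1.05 ± 0.27 (adjusted p 0.984).

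**Figure D5:**
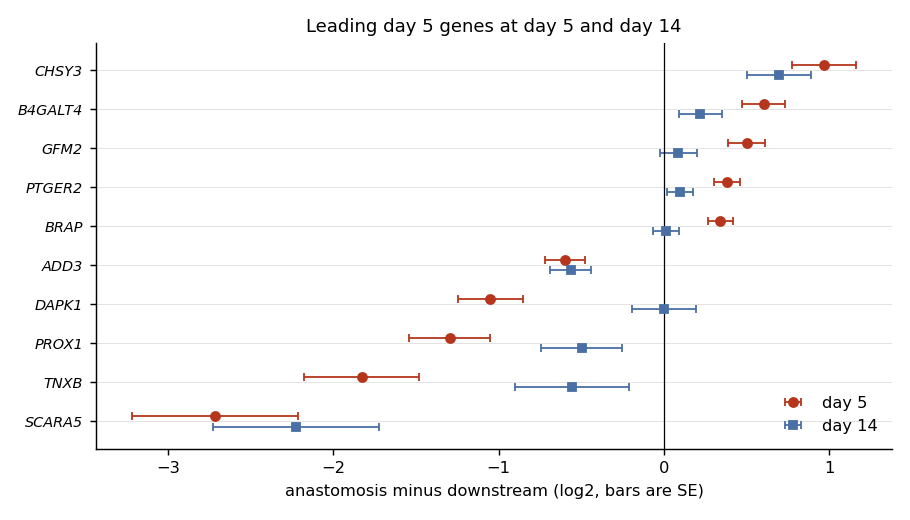
Fitted difference between anastomosis and downstream vein (log2, horizontal axis, bars are SE) for the 5 leading higher and 5 leading lower genes with the smallest unadjusted p at day 5, shown at day 5 (circles) and at day 14 (squares). SCARA5 is at -2.71 and -2.23, whereas DAPK1 is at -1.05 and near 0.

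The lists at day 14 had medians of 0.56 for cell cycle and -0.68 for adventitial fibroblast genes. The cell cycle pair medians at day 14 were 0.86, 0.65, -0.93 and 1.83, so replicate 3 went the other way. At that day 0 of 31 members were higher in 4 of 4 pairs, where 6.89% of all features and 8.96% of those with a symbol were. The adventitial fibroblast pair medians were -0.80, -0.61, -0.29 and -1.27, and 3 of 14 members were lower in 4 of 4 pairs, where 7.97% of all features and 6.71% of those with a symbol were. The same number, 3, were lower at an unadjusted p under 0.05, where 6.71% of all features and 7.66% of those with a symbol were. Monocyte and macrophage genes, without a shared direction at day 5, had a median of 0.85 at day 14. Their pair medians at day 14 were 0.94, 1.57, -0.11 and 0.60, so replicate 3 went the other way here too. Of the 23, 14 were higher at an unadjusted p under 0.05, where 7.41% of all features and 10.9% of those with a symbol were. The change of their difference between the days had an unadjusted p under 0.05 for 9 of the 23, where 4.15% of all features did. Collagen and matrix genes had a median of 0.39 at day 14, with 8 of 30 higher at an unadjusted p under 0.05, beside 1 of 30 at day 5. Their pair medians at day 14 were -0.075, 1.81, 0.038 and -0.136, so replicate 2 carried the size and the pairs did not share a direction. The change between the days had an unadjusted p under 0.05 for 2 of the 30. IBSP, bone sialoprotein, named after its values were seen, differed by 1.85 ± 1.07 at day 5 and by 3.10 at day 14. Contractile genes stayed without a shared direction, with pair medians of -1.01, 0.63, -0.21 and -0.07 at day 14.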

How the data were processed

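The members, gene lists and comparisons were chosen with earlier results of these data known. The deposited scanner files gave intensity values per spot and channel, with no normalisation, per the file headers (Agilent's Feature Extraction, version 10.5.1.1). A log2 table of the authors, with no method given in the sources used here and unknown centring, served as an alternative; it correlated with the values used here at 0.93 to 0.95 in the 8 samples.

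Channels were corrected with normexp (offset 50), normalised by loess within arrays and by Aquantile between arrays (R 4.3.3, limma 3.58.1), and a sample was its own channel in log2. The green channel of the downstream arrays has no sample in the labels. It entered the loess step and, through the mean of both channels, the Aquantile step. On the anastomosis arrays the green channel was the jugular sample, so the partner channel differed between the sites. Control and outlier spots were left out, spots of a probe averaged and the brightest probe of a symbol used. A feature was tested if 4 or more of the 24 samples had it well above background; 5873 of those tested had a symbol.

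The fit (lmFit, eBayes, checked on simulated data) used all 24 samples with 6 group terms and 8 blocks, 1 per day and replicate number. The samples of a block shared a slide, and the slide of replicate 4 was the same at both days. Deviations from the group means correlated between anastomosis and downstream samples of a number at 0.40, 0.65, 0.66 and 0.73 at day 5 and 0.19 to 0.55 at day 14. At day 14 replicates 2 and 3 correlated better with another number (0.385 and 0.308) than with their own (0.26 and 0.19). Tests were two-sided, adjusted by Benjamini-Hochberg with a threshold of 0.05.

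Named genes were the 15 higher and 15 lower with the smallest unadjusted p among those with 1 direction in 4 of 4 pairs and well above background in all samples of a site, the 3 with the smallest p of each list, the cell type markers, and the 2 unnamed features with the largest difference each way, both under the same condition on pairs and background, which was added later, and without it; any other list member is named after its values were seen. Of the 15 higher genes, 1 is not reported here. Alternatives changed the normalisation, background, filter, block or samples, or took the authors' log2 table.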

Additional observations from a re-analysis of the deposited data

Results flagged for a closer look

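Of 127 groups of 4 values examined, 6 had a value far from the other 3, where chance gives about 1 in 20. In 3 of them it was pair 1: 10.6% of features were past 2-fold in that pair, against 1.81%, 0.48% and 1.21%; the cell cycle median was 2.30, against 0.53, 0.25 and 0.39; and the lymph node and lymphatic median was 0.78, against -0.12, -0.14 and -0.05. The downstream sample of pair 1 also had the highest mean of skeletal muscle markers, 7.41, against 6.53, 6.46 and 6.55 in the other downstream samples, which ACTA1 carried, at 10.23 against 6.58, 6.57 and 7.13. CKM was at 7.07, against 6.96, 6.80 and 6.74, and TNNT3 at 6.68, against 6.73, 6.55 and 6.71. The nerve marker mean of the downstream sample of pair 3 was 6.62, against 7.21, 7.11 and 7.17. PPEF1 was at 9.69 in the anastomosis sample of pair 3, against 8.92, 9.03 and 9.03 in the other anastomosis samples.

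For 2 of 157 named genes all 4 pairs went one way at day 5 and the other way at day 14. C1QC differed by -0.79 at day 5 and by 0.72 at day 14, a change of -1.51 ± 0.46 with an adjusted p of 0.984. CCL21 differed by -1.74 at day 5 and by 0.95 at day 14, a change of -2.69 ± 0.99 with an adjusted p of 0.984, but it was well above background in only 2 of 4 anastomosis samples at day 5, so these sizes are not exact.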

How the results depend on the processing

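The comparison at day 5 gave 0 features past the threshold under 14 of 15 alternatives, and leaving out 1 replicate gave 0 to 1. Unadjusted p-values under 0.05 numbered 1253 (3.76%) without replicate 1, against 3331 (9.99%) with it. The lowest adjusted p without replicate 1 was 0.9995. Leaving out 1 replicate gave 0 to 442 features at day 14 (442 without replicate 3, of which 291 were higher and 151 lower). The authors' table gave 8 features at day 14 and 9 for the change between days. The pairing was checked on the samples' deviations: with no replicate block, 0 features passed at day 5 (839 at an unadjusted p under 0.05), 0 at day 14 and 0 for the change, and the block changed no other call. The adipocyte median was -0.77 with processed signals and -0.89 with the authors' table, against -0.24; the cause was not tested. The authors' table gave 5 adventitial fibroblast genes lower in 4 of 4 pairs, against 10, and 25 cell cycle genes higher, against 30. Over 5 other settings of the values, genes in 4 of 4 pairs numbered 5 to 14 higher for mitochondrial energy (9 as reported), 3 to 9 higher for endoplasmic reticulum folding (7), 0 to 3 higher for collagen processing (2), 2 to 5 higher and 3 to 7 lower for collagen and matrix (2 and 7), and 2 to 10 lower for adipocyte genes (4). Median centring put 27.5% of features with a symbol higher in 4 of 4 pairs, against 20.6%. All 30 leading genes kept 1 sign under 15 alternatives. They were chosen for 1 direction in 4 of 4 pairs, so changing the samples, block or filter could hardly turn their sign. Only other values, such as another normalisation or the authors' table, could readily do so, and nothing further is read from that count. Of 2346 gene values, 44 moved by more than the SD of the pairs. Few samples and unequal pairs limit precision, and dim probes limit genes such as PLIN1.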
